A study of Sus scrofa with 31 samples.

Results

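The 65 genes that were on in every sorted pig microglia sample and off in alveolar macrophages were chosen from 31907 gene ids in the count table. A gene was taken when it had at least 10 CPM (the reads of a gene scaled to a common library total) in each of the 24 microglia samples and a mean under 1 CPM in the 3 alveolar macrophage samples. Of 72 ids that met both thresholds, 7 were left out by gene name or family, which gave the 65 members. Symbols that start with ARHG were among those to leave out. ARHGEF17 stayed because the study lists it under a locus symbol, and it was named through RefSeq. The choice used the microglia and macrophage values themselves, so the contrast between these cell types is given as levels with no test. For comparison, 6591 ids had at least 10 CPM in each microglia sample whatever their macrophage level.

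By the pig tags in the titles, the libraries came from 15 male piglets around weaning age, each of a separate commercial cross-bred litter. None had an agent or altered allele in the labels. The study's methods describe sedation with ketamine, midazolam and medetomidine for brain imaging. Isoflurane anaesthesia with topical lidocaine followed, and the piglets were killed with pentobarbital. Microglia were sorted as CD11b-high, CD45-negative or low cells from cerebellum (n = 8), frontal cortex (n = 8) and hippocampus (n = 8), alveolar macrophages were sorted from lung lavage as F4/80-positive, CD163-low or negative cells (n = 3), and unsorted hippocampal tissue was sequenced from 4 animals. By the same tags, a pig gave more than 1 sample in 9 cases. The study's text gives other numbers of pigs and of pigs with multiple regions, and the tags were used here. Sows were kept in either of 2 kinds of housing, and the labels do not say which pig came from which. Microglia and macrophage RNA was taken with magnetic beads and tissue RNA with a lipid tissue column kit, so the extraction and the contrast of microglia with tissue cannot be told apart. Total counts ran from 18438494 to 36503520 in microglia, 36656624 to 40499293 in tissue and 39736805 to 43477403 in macrophage libraries. The study also reports far lower RNA concentrations from sorted cells than from tissue. Depth, and for tissue the RNA input, thus cannot be told apart from the contrasts with microglia either.

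Microglia are the resident macrophages of the brain parenchyma, seeded in the embryo and maintained by signalling through CSF1R. They share most lineage genes with macrophages of other organs, and the brain environment adds a further set of receptors, transcription factors and secreted proteins that lung macrophages do not use. A gene that marks microglia against lung macrophages need not mark them against brain tissue, because neurons and glia may use it too; the hippocampal tissue samples give the level of each gene in that mixture.

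The 23 measured genes of a microglia list (CSF1R, CX3CR1, P2RY12, TMEM119 and others, of which P2RY6 is also a member) summed to between 15161 and 25211 CPM in the microglia samples, 2107 to 5102 CPM in the macrophages and 1397 to 1736 CPM in tissue. The macrophage samples had CD163 at a mean of 399 CPM and MRC1 at 259 CPM, against at most 7.0 and 1.42 CPM in the mean of any microglia region, but of the same list LYVE1, FABP4 and MARCO had no count in any of them (MARCO had none in any group). The 7 lymphocyte markers summed to 857 to 1313 CPM in the macrophage samples (means of 315 CPM for CD2, 228 CPM for CD3E and 197 CPM for CD79A), above the macrophage list in 2 of the 3 (551 and 572 CPM, against 1115 CPM in pig 12984), and to 60.6 to 181 CPM in microglia. Their part in the macrophage levels that the rule used was not tested. Neuron markers (11 genes) summed to 3398 to 3903 CPM in tissue and 6.22 to 350 CPM in microglia. A set of 4 microglia libraries stood apart, with neuron sums of 350 CPM (frontal cortex, pig 12599), 337 CPM (cerebellum, pig 12902), 242 CPM (cerebellum, pig 12583) and 242 CPM (frontal cortex, pig 12891). The highest sum elsewhere among the microglia was 133 CPM. The frontal cortex library of pig 12599 also had the highest oligodendrocyte marker sum of the microglia (2352 CPM) and was the lowest of the 24 for 26 of the 65 members, where it was the lowest for 25.0% of the 6591 genes above the floor. Regional calls are given with and without these 4 libraries.

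Among the 65 members, 47 had a gene symbol and 18 had only an Ensembl id. In the macrophages, 26 members had no count in at least 1 of the 3 samples, none had 0 counts in all 3, and 15 exceeded 1 CPM in at least 1 sample. The highest single macrophage value was 2.23 CPM, for CPED1 in pig 12984, and that sample was the highest of the 3 for 37 members. At the microglia floor, ANK2 (lowest microglia sample 10.3 CPM) and ENSSSCG00000051416 (10.4 CPM) lay just inside, and ENSSSCG00000048207 (9.87 CPM) and ENSSSCG00000042623 (9.71 CPM) just outside. At the macrophage ceiling, ARMCX4 (mean 0.900 CPM) and CPED1 (0.892 CPM) lay just inside, and PMP22 (1.042 CPM) and TIFAB (1.044 CPM) just outside.

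Summed over the 65 members, microglia samples held 3354 to 7188 CPM and macrophage samples 18.1 to 32.0 CPM. Hippocampal tissue held 2327 to 2503 CPM, a level that the microglia and macrophage thresholds do not fix. ANK2 alone made up 617 to 680 CPM of the tissue sums, and the median member was at 11.6 to 14.8 CPM per tissue sample. ENSSSCG00000043147, LTC4S and ENSSSCG00000037137 were under 1 CPM in every tissue sample. Tissue was at 10 CPM or more in all 4 samples for 34 members and under 10 CPM in all 4 for 28. These counts were not made over all genes, so they describe the members only.

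Hippocampal microglia were compared with hippocampal tissue to ask which of these genes also separate microglia from the rest of the brain. Of the 65 members, 37 were higher in microglia (adjusted p under 0.01 and over 4-fold by edgeR), 1 was lower (ANK2) and 27 did not pass. Higher calls were made for 11.7% of all 11633 genes tested and for 16.2% of the genes above the microglia floor, beside 56.9% of the members. Lower calls were made for 22.1% of all genes tested and for 2.85% of those above the floor. The median log2 fold change was 2.43 over the members, -0.08 over all genes tested and 0.41 over the genes above the floor. By another scaling the median of all genes moved by -0.21 (RLE factors) or 0.22 (library totals only), and the members called higher then numbered 35 and 38. The spread among members was wide. In all, 19 had a log2 fold change over 4, 18 between 2 and 4, 13 between 0 and 2, and 15 under 0.

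**Figure D1:**
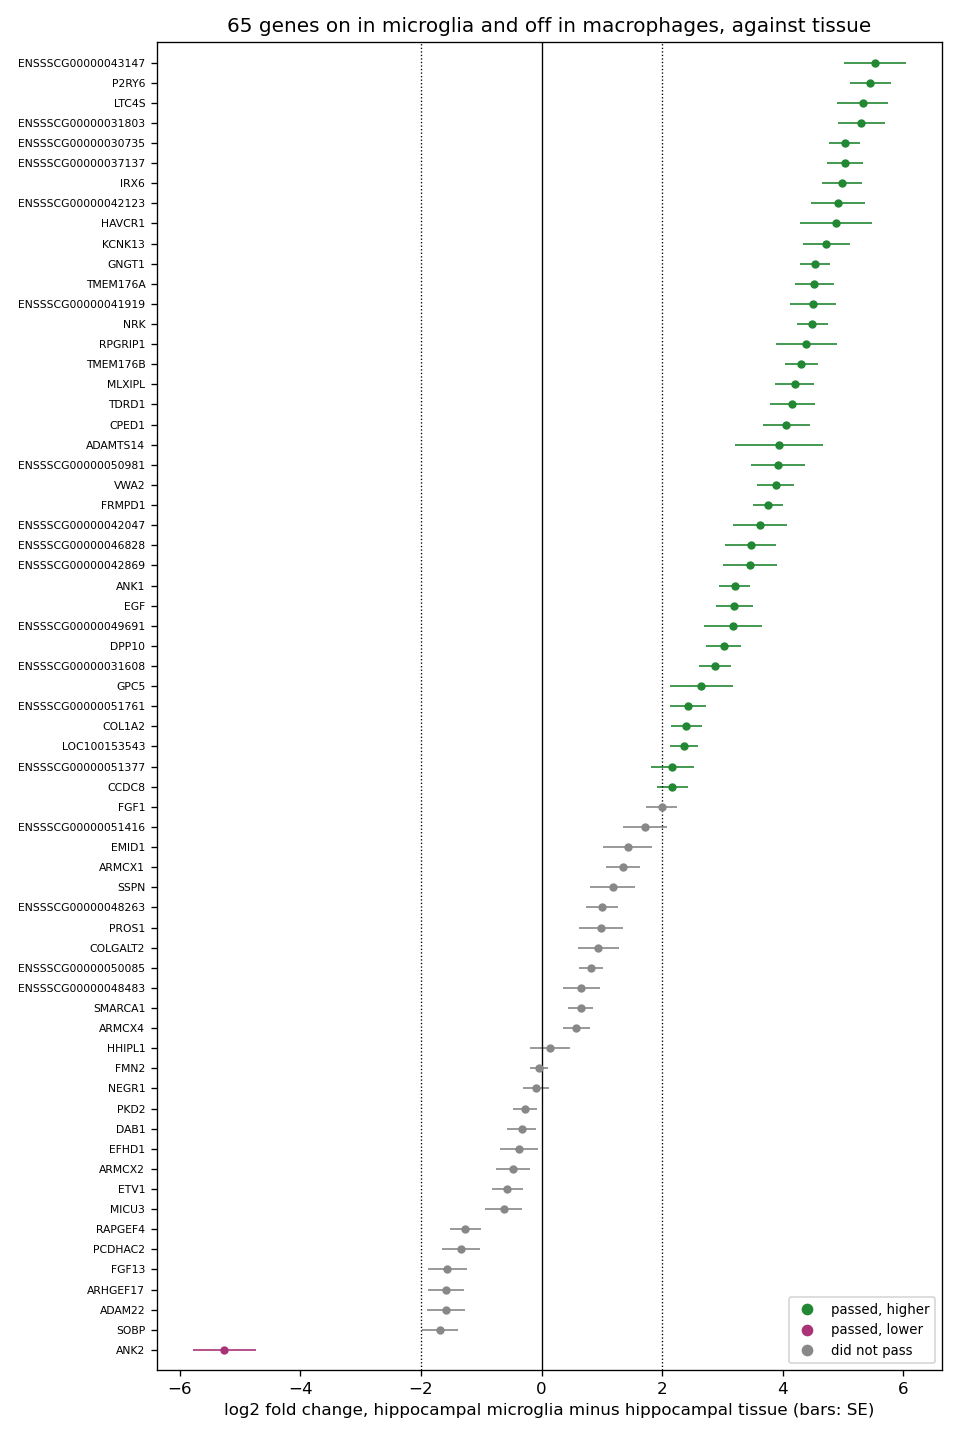
Fitted log2 fold change of hippocampal microglia (n = 8) over hippocampal tissue (n = 4) for each of the 65 members, with its standard error as a bar and dotted lines at 4-fold in either direction. The members form a continuum from 5.53 (ENSSSCG00000043147) to -1.69 (SOBP), with ANK2 alone at -5.26.

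In terms of separate samples, all 8 hippocampal microglia samples lay above all 4 tissue samples for 48 members, below them for 7, and overlapped them for 10. The groups were separated upwards for 35.4% of all genes tested and 51.8% of those above the floor, and downwards for 33.6% and 14.9%. Without the 4-fold threshold, 45 members were higher and 7 lower at an adjusted p under 0.01, where 32.2% of all genes and 47.2% of those above the floor were higher and 37.0% and 20.5% lower. In bulk samples, fewer cells of a type and less RNA per cell cannot be told apart, so a low tissue value says nothing of the level in single cells. Both hippocampal microglia and tissue came from 4 of the pigs. In all 4, microglia exceeded tissue for 49 members, and in none for 8 (ANK2, ADAM22, ARHGEF17, ETV1, FGF13, PCDHAC2, RAPGEF4 and SOBP). The same count was not made over all genes, so these numbers give only the direction within pigs.

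**Figure D2:**
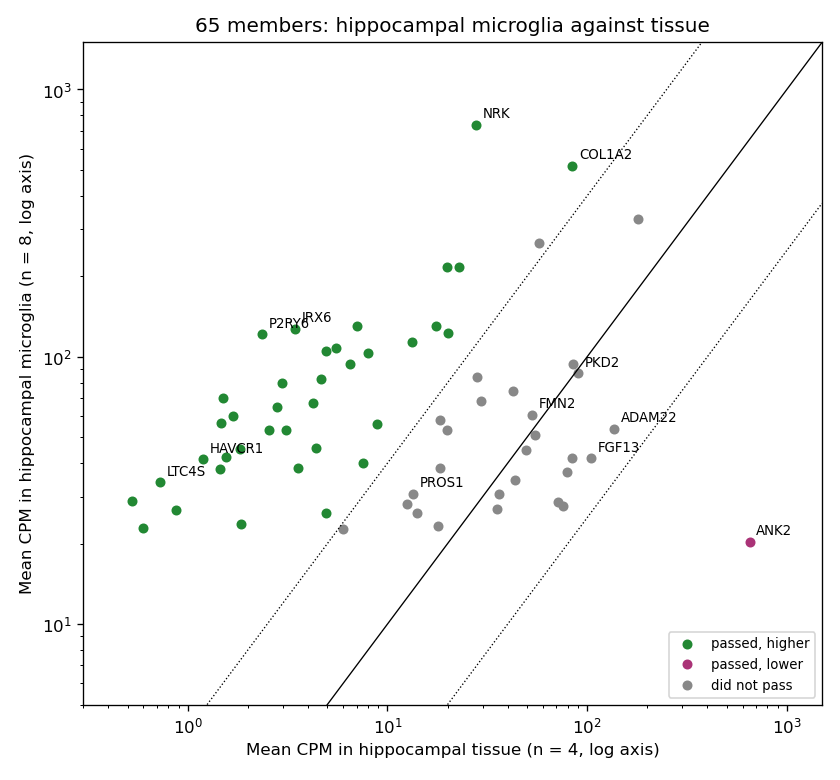
Mean CPM of each member in hippocampal tissue (n = 4, x axis) and hippocampal microglia (n = 8, y axis), both on log axes, with a line of equality and dotted lines at 4-fold in CPM. ANK2 lies far to the right at 651 CPM in tissue, NRK is highest in microglia, and ADAM22 and FGF13 lie below the line of equality.

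The receptors and G protein genes held members from both ends. P2RY6, a receptor for UDP that triggers phagocytosis in microglia, was at 84.5 CPM in the lowest, 116 CPM in the median and 166 CPM in the highest hippocampal microglia sample, and at 1.69, 2.70, 2.60 and 2.42 CPM in the 4 tissue samples. The groups did not overlap, and the log2 fold change was 5.45 (SE 0.34, adjusted p = 2.02e-14). GNGT1, a G protein gamma subunit best known from rod photoreceptors, ran from 57.8 to 96.1 CPM in hippocampal microglia and from 2.32 to 3.97 CPM in tissue (log2 fold change 4.53, SE 0.25). RAPGEF4, the cyclic AMP-activated exchange factor EPAC2, went the other way. Its hippocampal microglia samples lay between 33.1 and 58.3 CPM, under tissue at 71.9, 81.3, 94.7 and 89.8 CPM. The fitted difference was -1.27 on the log2 scale (SE 0.26), short of the 4-fold threshold, with edgeR's adjusted p at 8.13e-05.

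Of the 5 transcription factors and chromatin proteins, 2 passed, both higher in microglia. IRX6, an Iroquois homeobox factor, was at 111, 126 and 157 CPM in the lowest, median and highest hippocampal microglia sample and at 3.55, 3.40, 3.24 and 3.63 CPM in tissue. No samples overlapped and the tissue values were close together (log2 fold change 4.98, SE 0.33, adjusted p = 1.15e-13). MLXIPL, the carbohydrate response factor ChREBP, was 70.0 to 121 CPM in hippocampal microglia and 3.87 to 6.36 CPM in tissue (log2 fold change 4.19, SE 0.32). SMARCA1, the ISWI-family ATPase SNF2L, was abundant in both, at 279 to 393 CPM in microglia and 169 to 195 CPM in tissue. It was separated by sample yet only 0.65 apart on the log2 scale (SE 0.20). ETV1, an ETS factor, overlapped tissue (log2 fold change -0.57, SE 0.26, adjusted p = 0.050). SOBP, a zinc finger protein needed for cochlear development, was lower by sample, at 19.0 to 38.6 CPM against 85.1, 62.5, 104 and 50.7 CPM in tissue (log2 fold change -1.69, SE 0.30).

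The 3 enzyme and kinase genes all passed upwards. LTC4S, which makes leukotriene C4, was at 24.0, 28.9 and 54.7 CPM (lowest, median, highest) in hippocampal microglia and at 0.627, 0.934, 0.511 and 0.840 CPM in tissue. The tissue samples were at the level of the macrophages (0.217, 1.11 and 0.368 CPM), and the log2 fold change was 5.32 (SE 0.42, adjusted p = 4.61e-12). NRK, a germinal centre kinase family member, had the highest CPM per kilobase of exon of the 47 members with an annotated length, at 81.3 (exons of all transcripts merged). Its hippocampal microglia samples ran from 563 to 926 CPM with a median of 747 CPM, and tissue held 32.7, 24.2, 23.3 and 31.4 CPM (log2 fold change 4.49, SE 0.26, adjusted p = 3.07e-15). TDRD1, a Tudor domain protein of the germline piRNA pathway, was 35.7 to 78.4 CPM in hippocampal microglia and 1.89 to 3.14 CPM in tissue, and in the macrophages had counts in 1 sample only (0.0755 CPM).

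**Figure D3:**
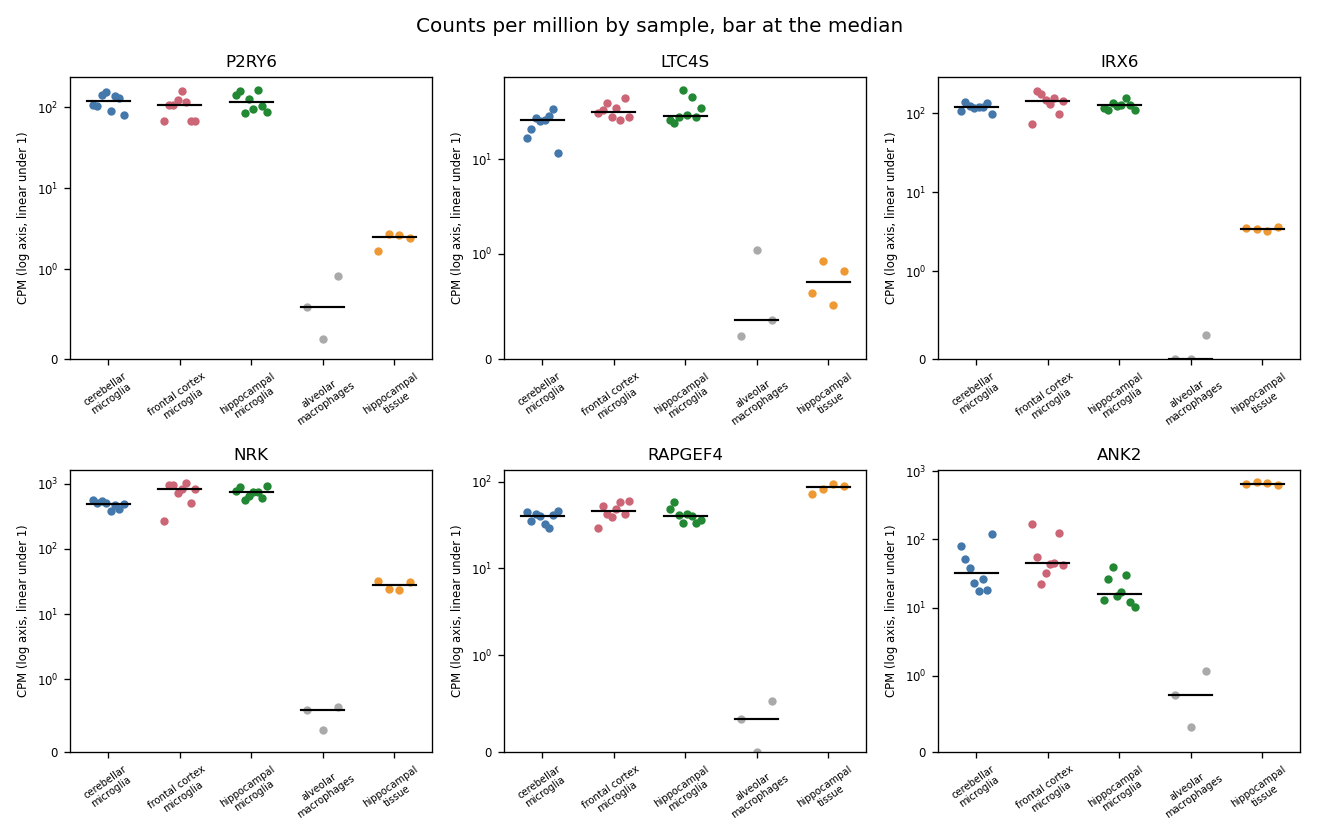
CPM in each sample for P2RY6, LTC4S, IRX6, NRK, RAPGEF4 and ANK2, with the 5 groups along the x axis and a bar at each median; the y axis is logarithmic above 1 CPM and linear below it. P2RY6, LTC4S, IRX6 and NRK are high in all microglia and low in tissue, whereas tissue exceeds microglia for RAPGEF4 and, by far, for ANK2.

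Among 6 growth factor and EGF-like genes, 3 passed upwards and none passed downwards. VWA2, a secreted von Willebrand A domain protein, was 39.4 to 73.4 CPM in hippocampal microglia and 1.94 to 4.57 CPM in tissue (log2 fold change 3.88, SE 0.31). EGF itself was 26.2 to 59.8 CPM against 2.76 to 4.30 CPM. LOC100153543, described as a multiple EGF-like domains protein, was 93.5 to 154 CPM against 16.2 to 24.2 CPM (log2 fold change 2.36, SE 0.23). FGF1, the acidic fibroblast growth factor, was one of the more abundant members, at 154, 261 and 419 CPM in the lowest, median and highest hippocampal microglia sample and 66.1, 47.8, 50.3 and 64.1 CPM in tissue. It sat at the threshold at 1.99 on the log2 scale (SE 0.25, adjusted p = 5.84e-08), and 11 of 23 alternative settings put it past 4-fold. HHIPL1, a relative of the hedgehog-interacting protein, overlapped tissue (log2 fold change 0.15, SE 0.33). FGF13, an intracellular relative of the fibroblast growth factors that binds sodium channels in neurons, was lower by sample, at 36.6 to 45.8 CPM against 112, 86.1, 107 and 115 CPM (log2 fold change -1.56, SE 0.33).

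Adhesion, axon and synapse genes were the only role group with a median below 0, with a median log2 fold change of -0.21 over 6 genes, of which 2 passed upwards. HAVCR1 (TIM-1), a phosphatidylserine receptor, was 11.3, 39.0 and 62.3 CPM in hippocampal microglia (lowest, median, highest) and 1.20, 0.960, 1.69 and 0.938 CPM in tissue. Its log2 fold change was 4.89 (SE 0.60, adjusted p = 3.20e-08), but limma-voom gave an adjusted p of 0.030. DPP10, a potassium channel partner without peptidase activity, was 175 to 257 CPM against 20.4, 22.8, 28.9 and 19.3 CPM (log2 fold change 3.02, SE 0.29, adjusted p = 2.28e-10). NEGR1, a neuronal growth regulator, and DAB1, the reelin adaptor, overlapped tissue (log2 fold changes -0.09, SE 0.22, and -0.33, SE 0.25). PCDHAC2, of the protocadherin alpha cluster, and ADAM22, the LGI1 receptor of synapses, had every hippocampal microglia sample below every tissue sample. ADAM22 was 34.1 to 92.1 CPM against 157, 94.9, 165 and 127 CPM (log2 fold change -1.59, SE 0.32, adjusted p = 6.04e-05). PCDHAC2 was 22.8 to 64.1 CPM against 74.9 to 84.7 CPM; its cluster members share exons, so its counts are uncertain.

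The cytoskeleton and scaffold group held the member that was lower in microglia. The ankyrins ANK1 and ANK2, of a family that ties membrane proteins to the spectrin skeleton, were members, and they diverged. ANK1, the erythrocyte ankyrin, was 154, 218 and 263 CPM in hippocampal microglia and 22.5, 14.6, 22.9 and 19.7 CPM in tissue (log2 fold change 3.20, SE 0.26, adjusted p = 9.94e-12). ANK2, the ankyrin of neurons and heart, was 10.3, 15.9 and 39.3 CPM against 644, 680, 662 and 617 CPM (log2 fold change -5.26, SE 0.53, adjusted p = 7.48e-10). Its level moved with the neuron markers across the microglia libraries. In the 4 libraries with neuron sums over 200 CPM, ANK2 lay between 80.4 and 167 CPM, above every one of the other 20 (10.3 to 54.4 CPM). The part of neuronal RNA in the ANK2 values was not tested. FRMPD1, a FERM and PDZ domain scaffold (log2 fold change 3.75, SE 0.25), and RPGRIP1, a ciliary protein of photoreceptors (4.39, SE 0.50), passed upwards. ARHGEF17 was lower by sample at 16.3 to 44.2 CPM against 62.5 to 79.0 CPM (log2 fold change -1.58, SE 0.30). FMN2, an actin-nucleating formin, was at the same level in both, 44.6 to 75.1 CPM against 53.0, 50.8, 54.5 and 54.3 CPM (log2 fold change -0.04, SE 0.15).

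The 7 matrix and secreted protein genes included 4 higher calls. COL1A2, the alpha 2 chain of type I collagen, was at 388, 528 and 618 CPM in hippocampal microglia and at 119, 80.9, 56.6 and 81.5 CPM in tissue (log2 fold change 2.40, SE 0.25, adjusted p = 1.68e-09). Its partner chain COL1A1 was between 0 and 1.17 CPM in the same 8 microglia samples and between 72.0 and 146 CPM in tissue. COL3A1 had no count in any hippocampal microglia sample. The other 4 fibroblast markers of the list summed to 0.213 to 5.97 CPM in hippocampal microglia and 113 to 228 CPM in tissue. CPED1 (log2 fold change 4.06, SE 0.39), the procollagen peptidase ADAMTS14 (3.94, SE 0.73) and the glypican GPC5 (2.64, SE 0.52) also passed. ADAMTS14 varied widely, from 43.2 to 230 CPM in hippocampal microglia and from 1.80 to 9.42 CPM in tissue. EMID1, the anticoagulant PROS1 and the collagen galactosyltransferase COLGALT2 did not pass, with log2 fold changes between 0.94 and 1.43.

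Of 7 channel and membrane genes, 3 passed upwards. KCNK13, the two-pore potassium channel THIK-1 that sets the resting potential of microglia, was 20.4, 27.4 and 31.3 CPM against 0.982, 1.04, 0.919 and 0.543 CPM in tissue (log2 fold change 4.72, SE 0.39, adjusted p = 9.94e-12). TMEM176A (4.52, SE 0.32) and TMEM176B (4.30, SE 0.27), a pair of related cation channels, moved alike. PKD2, polycystin-2, was 74.9 to 105 CPM in microglia and 80.9 to 107 CPM in tissue (log2 fold change -0.28, SE 0.20). SSPN, EFHD1 and MICU3 lay between -0.63 and 1.18 on the log2 scale. In the Armcx family on chromosome X, ARMCX1 was higher by sample (59.4 to 106 against 24.1 to 32.1 CPM, log2 fold change 1.35, SE 0.29), ARMCX4 slightly so (0.58, SE 0.22), and ARMCX2 overlapped tissue (-0.47, SE 0.28). CCDC8, a cullin complex scaffold, was 23.0 to 30.5 CPM against 4.58 to 5.51 CPM (log2 fold change 2.17, SE 0.25).

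The 18 members without a symbol had a median log2 fold change of 3.46, and 14 of them passed upwards and none downwards. The strongest were ENSSSCG00000043147 (5.53, SE 0.51), ENSSSCG00000031803 (5.30, SE 0.39), ENSSSCG00000030735 (5.03, SE 0.26) and ENSSSCG00000037137 (5.03, SE 0.30). ENSSSCG00000030735 was 41.9 to 72.1 CPM in hippocampal microglia and 1.25 to 1.72 CPM in tissue. Beside the members, 20 of the 22 other microglia genes on the list passed upwards, with a median log2 fold change of 4.65 over the 22. All 11 neuron markers tested passed downwards, with a median of -7.80.

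The 3 microglia regions were compared to ask whether these genes vary by brain area. By the F test over regions (edgeR, adjusted p under 0.01), 3 of the 65 members passed: FMN2, ARMCX2 and COL1A2. The count depended on the fit. By limma-voom, the study's own tool, 12 members passed, beside 225 of all genes tested. By DESeq2 these counts were 15 and 760, and by limma-voom with the pig as a random block 12 and 333. Without 1 microglia sample they ran from 1 to 4 and from 154 to 335. In the edgeR fit, the share called was 2.03% of all genes tested and 1.87% of those above the floor, beside 4.62% of the members. At an unadjusted p under 0.05, 24 members passed (36.9%), against 25.9% of all genes. With the pig as a block in edgeR, all genes called fell from 236 to 85, and the members called were FMN2, ARMCX2 and ENSSSCG00000048263. The highest regional mean was a median of 1.38 times the lowest, 45 members were within 1.5 times, and 6 were 2 times apart or more. The same ratios were not taken over all genes, so they describe the members only.

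FMN2 was graded by region. Cerebellar microglia held 69.2, 99 and 121 CPM (lowest, median, highest), hippocampal microglia 44.6, 60.9 and 75.1 CPM, and frontal cortex microglia 30.0, 37.7 and 56.7 CPM. Cerebellar and frontal cortex samples did not overlap, and hippocampal samples overlapped both. The adjusted p of the F test was 6.38e-07, and FMN2 passed with each of the 24 microglia samples left out in turn (adjusted p at most 5.25e-06) and in all 10 other settings. The log2 fold change of cerebellar over frontal cortex microglia was 1.31 (SE 0.13, adjusted p = 1.38e-07), and cerebellum was higher in 6 of 6 pigs that gave both. Cerebellum over hippocampus was 0.63 (SE 0.13, adjusted p = 0.0060) and frontal cortex over hippocampus -0.68 (SE 0.13, adjusted p = 0.0054). These 2 pairs lost the call with the pig as a block in edgeR (adjusted p = 0.121 and 0.123). Both kept it with the pig as a random block in limma-voom. The calls of these 2 pairs were also lost in 9 and 13 of the 24 fits without 1 microglia sample, with adjusted p up to 0.016 and 0.030. In the frontal cortex libraries of high neuron sum, FMN2 was at 34.6 CPM in pig 12599 and at 56.7 CPM in pig 12891, the highest of the 8 frontal cortex samples (the next 43.9 CPM). Without the 4 libraries of high neuron sum the F test gave an adjusted p of 9.77e-07.

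**Figure D4:**
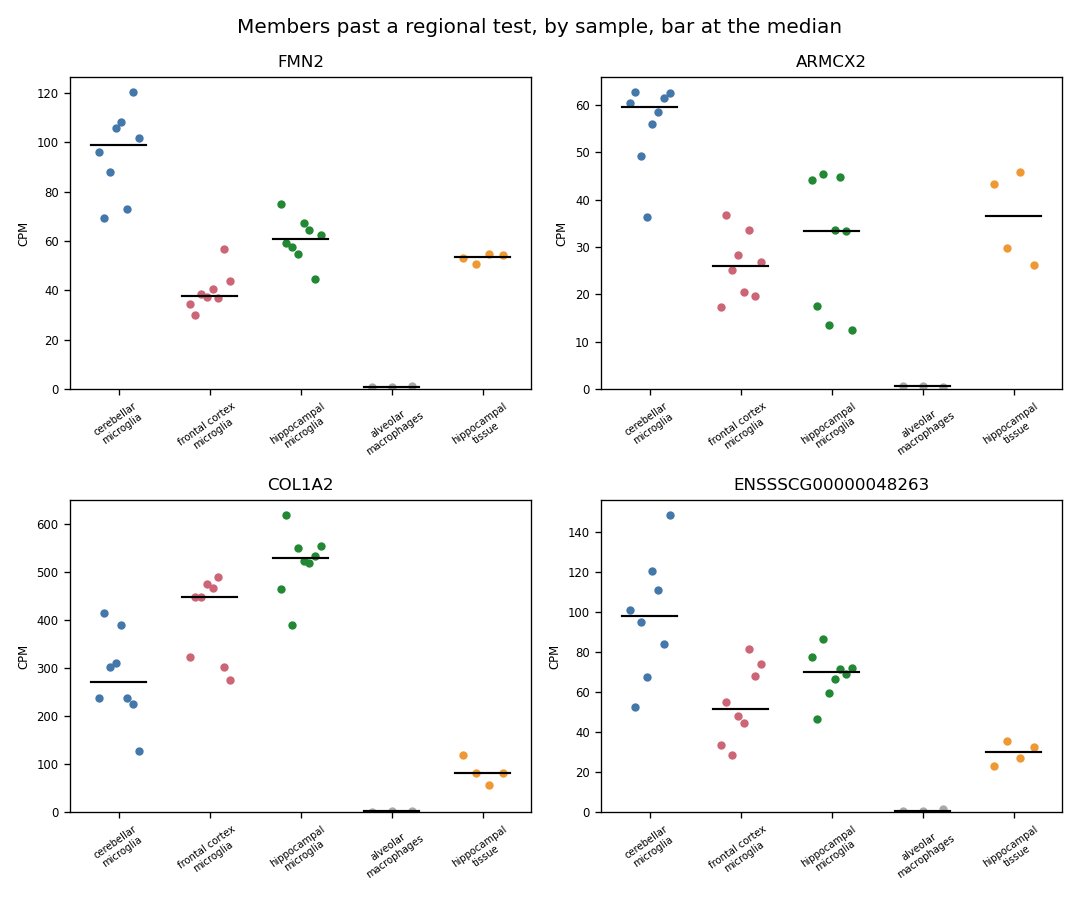
CPM in each sample for FMN2, ARMCX2, COL1A2 and ENSSSCG00000048263, with the 5 groups along the x axis, a linear y axis from 0 and a bar at each median. FMN2 and ARMCX2 are highest in cerebellar microglia, with no frontal cortex sample of FMN2 at the cerebellar level, and COL1A2 is lowest there.

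ARMCX2, an armadillo-repeat protein of the family that anchors mitochondria in neurons, was at 36.4, 59.5 and 62.8 CPM in cerebellar microglia and 17.3, 25.9 and 36.7 CPM in frontal cortex microglia. These groups overlapped only at the cerebellar sample of pig 12758 and the frontal cortex sample of pig 12707. Hippocampal microglia spread from 12.5 to 45.5 CPM. The F test gave an adjusted p of 0.0047, and cerebellar exceeded frontal cortex microglia by 1.18 on the log2 scale (SE 0.24, adjusted p = 0.0031), with cerebellum higher in 6 of 6 pigs. The F test call was kept in 21 of 24 fits without 1 microglia sample; it was lost without the cerebellar sample of pig 12583, 12847 or 12891 (adjusted p up to 0.0104), and with no filter on low counts. Without the 4 libraries of high neuron sum both calls were lost, with an adjusted p of 0.029 for the F test and 0.021 for the pair. The related ARMCX1 and ARMCX4 did not pass in the same fit (adjusted p = 0.20 and 0.056), but ARMCX4 passed in 4 of 10 other settings (adjusted p = 0.0010 by limma-voom and 0.0016 by DESeq2), so a difference between these relatives was not shown.

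COL1A2 went the other way, at 126, 270 and 415 CPM in cerebellar microglia, 275, 447 and 488 CPM in frontal cortex microglia and 388, 528 and 618 CPM in hippocampal microglia. Cerebellar and hippocampal samples overlapped at 2 cerebellar values, 389 and 415 CPM, and cerebellum was lower in 4 of 4 pigs. The adjusted p of the F test was 0.0084, and cerebellar over hippocampal microglia was -0.90 on the log2 scale (SE 0.18, adjusted p = 0.0071). For that pair it was 0.121 with the pig as a block in edgeR and 0.016 without the 4 libraries. The F test call held in 7 of 24 fits without 1 microglia sample, with adjusted p up to 0.021. Of 10 other settings it held in 4: limma-voom (0.0038), limma-voom with the pig block (0.0016), DESeq2 and library totals only. It was lost with RLE factors, with either other filter and with only the groups compared. It was also lost with the pig as a block in edgeR (0.051) and without the 4 libraries (0.016). The lowest COL1A2 value belonged to the cerebellar library of pig 12902, 1 of those 4. The other fibroblast markers summed to 1.90 to 56.6 CPM in cerebellar (median 10.3), 1.89 to 101 CPM in frontal cortex (median 5.79) and 0.213 to 5.97 CPM in hippocampal microglia (median 1.98). The part of fibroblast RNA in the COL1A2 values was not tested.

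In the edgeR fit reported, ENSSSCG00000048263 passed only the pair of cerebellar and frontal cortex microglia (log2 fold change 0.92, SE 0.21, adjusted p = 0.0085). It was at 52.5 to 148 CPM against 28.4 to 81.5 CPM with overlap, and cerebellum was higher in 6 of 6 pigs. Without the 4 libraries of high neuron sum the pair was no longer called (adjusted p = 0.026). Its F test did not pass in that fit (adjusted p = 0.018) but passed in 4 of 10 other settings. These were limma-voom (0.0082), DESeq2 (0.0013) and the pig as a block in edgeR (0.0085) and in limma-voom (0.0024). For cerebellar against frontal cortex microglia, calls were made for 1.87% of all genes tested and 2.31% of those above the floor, where 3 members were called, all higher in cerebellum. The shares were 0.602% and 0.470% for cerebellum against hippocampus, with FMN2 called higher and COL1A2 lower, and 0.318% and 0.212% for frontal cortex against hippocampus, with FMN2 called lower. Cerebellar neuron markers were also higher in cerebellar microglia, with 6 genes summing to 10.4 to 133 CPM there, 1.35 to 31.5 CPM in frontal cortex and 0.605 to 5.38 CPM in hippocampal microglia, and their part in the regional differences was not tested. NRK was lower in cerebellar than in frontal cortex microglia by mean but did not pass the F test (adjusted p = 0.028). Without the frontal cortex sample of pig 12599, its lowest value at 266 CPM, the adjusted p was 0.0018, and without the 4 libraries it was 0.0020.

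**Figure D5:**
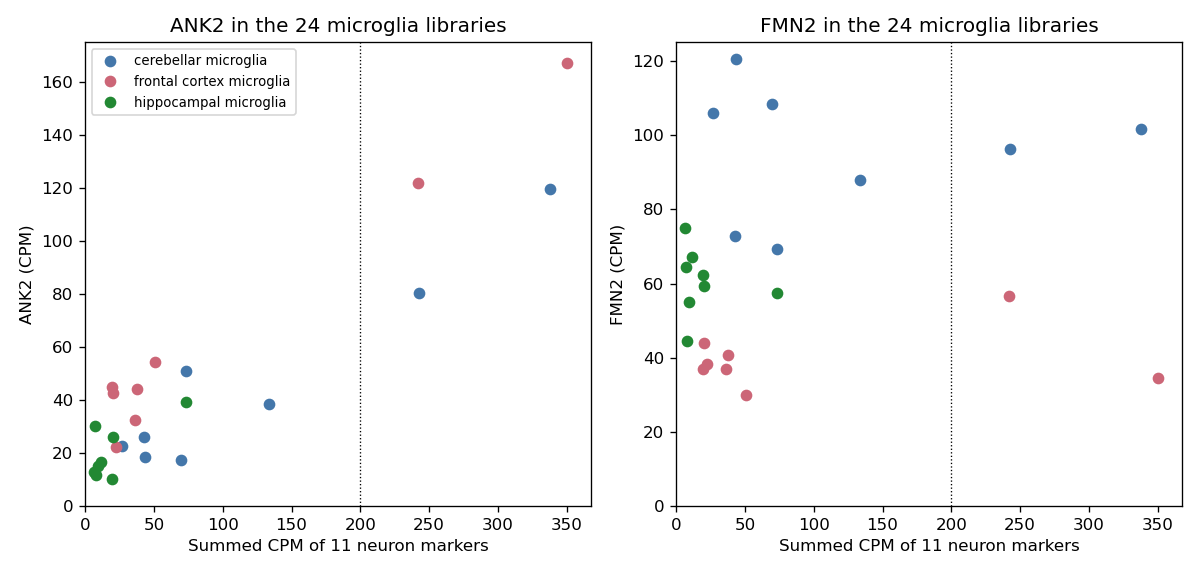
Each of the 24 microglia libraries by its summed CPM of 11 neuron markers (x axis, linear, dotted line at 200 CPM) and its CPM of ANK2 (left) or FMN2 (right), coloured by region. The 4 libraries right of the line have the 4 highest ANK2 values, 80.4 to 167 CPM, and FMN2 in the same libraries is at 34.6 to 102 CPM.

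ANK2 had the widest regional ratio of means of any member (3.27, frontal cortex over hippocampus) yet did not pass the F test (adjusted p = 0.032; 0.10 without the 4 libraries). It was also the most variable member over the 24 microglia samples, with a coefficient of variation of 0.897, followed by HAVCR1 (0.598) and GPC5 (0.593). The steadiest were PKD2 (0.112, from 67.2 to 105 CPM), KCNK13 (0.138) and FRMPD1 (0.168). The median coefficient of variation was 0.295 over the members and 0.219 over the genes above the floor. HAVCR1 reached 148 CPM in its highest microglia sample and 11.3 CPM in its lowest.

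Positions in the pig genome (Sscrofa11.1) were found for 47 of the 65 members through RefSeq. Chromosome 9 held 7 of these 47 (14.9%, against 5.00% of the tested genes with a position) and chromosome X held 6 (12.8%, against 3.33%), counts that were not tested. There were 11 members within 1 Mb of another. On chromosome X, ARMCX4, ARMCX1 and ARMCX2 stood in that order, 2.05 kb and 77.0 kb apart, and their log2 fold changes against tissue fell in a different order (0.58, 1.35 and -0.47). TDRD1 (chr14:124526013-124575166, plus strand) ended 2.25 kb before VWA2 (chr14:124577420-124631760, plus strand), and both were much higher in microglia than tissue. P2RY6 (chr9:7708452-7759721) and ARHGEF17 (chr9:7766701-7826513), both on the plus strand and 6.98 kb apart, differed, P2RY6 being higher in microglia and ARHGEF17 below tissue. GNGT1 and COL1A2 were 457 kb apart on chromosome 9. TMEM176A lay within the span of TMEM176B on the opposite strand of chromosome 18. Whether counting used the strand is not given in the sources used here, so reads from these overlapping genes may not be told apart, and the same holds for other members that overlap a neighbour.

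The 250 bases before the annotated start were read for all 47 members with a position and searched on both strands. The 6 motifs were chosen with earlier results known. The inner part of the element of the macrophage factor PU.1, GGAAGT, was found for 8 of the 47 members (17.0%) and in 17.3% of 20656 windows of protein-coding genes. Its longer form GAGGAAGT, which contains it, was in no member window and in 1.62% of all. The TATA box, TATAAA, was found for 4 members (8.51%, against 10.4% of all windows). An E-box of bHLH factors, CAGATG, was in the windows of 8 members (17.0%, against 12.6%). The palindromic E-box form, CACGTG, was in the window of 1 member, EMID1 (2.13%, against 6.16%). The cyclic AMP element, TGACGTCA, was in that of 1 member, IRX6 (2.13%, against 1.63%). In the 9661 windows of tested genes the shares were 18.8% for GGAAGT, 1.82% for GAGGAAGT and 6.63% for TATAAA. They were 10.2% for CAGATG, 7.64% for CACGTG and 2.31% for TGACGTCA. The TATAAA share of the members thus lay under that of all windows and over that of tested genes. None of these shares was tested. The median GC content was 60.0% for the members and 61.6% for the tested genes. To show the match in genes that were higher in microglia than in tissue, the windows of FRMPD1 (chr1:238371061-238371310, plus strand, 43.6% GC), VWA2 (chr14:124577170-124577419, plus strand, 42.8% GC) and ADAMTS14 (chr14:73564908-73565157, plus strand, 76.4% GC) are given 5′ to 3′, with the GGAAGT match, on either strand, in capitals.
FRMPD1: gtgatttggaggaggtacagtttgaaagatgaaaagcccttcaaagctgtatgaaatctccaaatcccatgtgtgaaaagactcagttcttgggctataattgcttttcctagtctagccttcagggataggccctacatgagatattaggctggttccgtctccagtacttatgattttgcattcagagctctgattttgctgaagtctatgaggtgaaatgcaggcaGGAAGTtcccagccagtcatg
VWA2: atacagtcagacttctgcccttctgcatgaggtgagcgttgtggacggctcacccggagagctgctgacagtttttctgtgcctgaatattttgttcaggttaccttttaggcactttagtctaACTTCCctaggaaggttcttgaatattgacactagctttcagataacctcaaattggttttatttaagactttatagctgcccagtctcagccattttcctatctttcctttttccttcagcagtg
ADAMTS14: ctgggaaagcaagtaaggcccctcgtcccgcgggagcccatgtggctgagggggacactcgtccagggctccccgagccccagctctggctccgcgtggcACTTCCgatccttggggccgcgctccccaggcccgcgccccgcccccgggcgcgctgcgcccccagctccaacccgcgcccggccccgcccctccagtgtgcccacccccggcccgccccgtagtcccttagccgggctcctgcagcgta

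The match began 21 bases before the annotated start of FRMPD1, 126 before that of VWA2 and 150 before that of ADAMTS14.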

How the data were processed

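RNA from 31 pig samples in 5 groups had been made into stranded total RNA libraries by the authors and read as paired ends. Per the labels and the study's methods, reads were trimmed with BBtools, aligned to Sscrofa11.1 with HISAT2 and counted per Ensembl gene with StringTie; the deposited values are whole-number counts, not scaled. The columns of the table were all used (0 unused). Groups and pig tags came from the sample titles. CPM by total counts are printed as levels.

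The members and lists were chosen with earlier results of these data known. Genes above 10 CPM throughout 1 or more groups (11633) were fitted by edgeR 4.0.16 (TMM, robust quasi-likelihood, 1 model of 5 groups) in R 4.3.3, with Benjamini-Hochberg adjustment over all of them; the fold threshold of 4 against tissue and the adjusted p of 0.01 follow the study. limma 3.58.1 (voom) and DESeq2 1.42.0 were alternatives. SE was the log2 fold change over the root of F. The code was tested on simulated counts. Symbols came from the study's tables and the Ensembl name table, with FMN2 and ARHGEF17 named through RefSeq. Positions, exons and upstream windows came from RefSeq (annotation release 106, Sscrofa11.1).

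The members named were the 6 with the largest and the 6 with the smallest change against tissue, those past the F test over regions, up to 4 with the highest mean in each role list, those nearest a threshold of the rule, the 3 most and the 3 least variable, and those within 1 Mb of another. The roles of 7 members (ANK2, ARHGEF17, ARMCX2, GPC5, ADAMTS14, SSPN and HAVCR1) were assigned after the members were known; EGF, HHIPL1, EMID1, PROS1, COLGALT2, EFHD1, MICU3 and ENSSSCG00000048263 were named after their values were seen. Replicate samples of a group differed by more than counting noise (lowest mean chi-square per gene 20.5 over 93 pairs). Same-numbered samples came from the same animal. Their deviations correlated at a mean r of 0.037 in 4 pairs of hippocampal microglia and tissue and 0.125 in 13 pairs of microglia regions.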

Additional observations from a re-analysis of the deposited data

Results flagged for a closer look

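A sample far from the rest of its group was found for 9 named members. Over all 65 members and the groups of 8 or 4 samples, 15 of 260 sets were marked (5.77%); chance marks about 1 in 20. In frontal cortex microglia, the sample of pig 12758 was highest for GPC5 (154 CPM, the next 56.2 CPM) and CCDC8 (30.7 CPM, the next 20.4 CPM), that of pig 12847 for DAB1 (85.7 CPM), and that of pig 12599 highest for ADAM22 (71.2 CPM) and lowest for VWA2 (20.5 CPM, the next 46.5 CPM). In cerebellar microglia, pig 12599 was highest for TMEM176A (96.7 CPM, the next 59.0 CPM) and ENSSSCG00000037137 (34.8 CPM), pig 12750 for ARMCX1 (116 CPM) and pig 12891 for RPGRIP1 (80.0 CPM).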

How the results depend on the processing

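Against tissue, 35 to 38 members were called higher in the other fits, and 37 to 38 in the 12 fits without 1 sample; without a fold threshold 45 were higher and 7 lower, and ANK2 was the 1 member called lower in every fit with the threshold. Over all genes the calls rose to 2120 higher and 4963 lower with filterByExpr and to 2097 and 5771 with no filter, where more genes were tested. Without 1 sample they ranged from 1343 to 1378 higher and 2520 to 2624 lower, and the replicate block in edgeR gave 38 members higher, with FGF1 past 4-fold. FMN2 and NEGR1, near 0, changed sign: FMN2 to 0.18 with library totals only, 0.016 with filterByExpr and 0.014 with no filter, and NEGR1 to 0.14 with library totals only and 0.019 with the replicate block. CCDC8 fell under 4-fold with RLE factors (1.95) and DESeq2 (1.96), and HAVCR1 lost its call with limma-voom (adjusted p = 0.030) and with limma-voom and the replicate block (0.011).

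By region, members past the F test numbered 12 with limma-voom, 15 with DESeq2, 12 with the replicate block in limma-voom, 13 at an adjusted p under 0.05 and 1 with no filter, and 1 to 4 without 1 sample. Over all genes the count was 225 with limma-voom, 333 with the replicate block in limma-voom, 248 with no filter and 760 with DESeq2. It was 141 with only the groups compared, 85 with the replicate block in edgeR and 927 at an adjusted p under 0.05. Without 1 sample it ran from 154 (without the cerebellar sample of pig 12750) to 335. Members higher in cerebellar than frontal cortex microglia numbered 1 with no filter, 6 with limma-voom and with DESeq2, 5 with only the groups compared, 7 with the block in limma-voom, 1 without the 4 libraries of high neuron sum, a set chosen after seeing the data, 5 at an adjusted p under 0.05, and 2 to 4 without 1 sample. Members lower there were 0 in the fit reported (by edgeR, 5 with DESeq2, 1 with limma-voom, 3 with the block in limma-voom, 3 at an adjusted p under 0.05, and 1 with only the groups compared, with the pig block in edgeR and without the 4 libraries; 0 to 1 without 1 sample). Members higher in cerebellar than hippocampal microglia were 2 with DESeq2, with the block in limma-voom and at an adjusted p under 0.05, and 0 with only the groups compared and with the pig block in edgeR (0 to 1 without 1 sample). Members lower there were 0 with either other filter, with only the groups compared and with the block in edgeR, 2 with limma-voom, 4 with DESeq2, 3 with the block in limma-voom and 3 at an adjusted p under 0.05 (0 to 2 without 1 sample). Members higher in frontal cortex than hippocampal microglia were 3 with DESeq2, 1 with the block in limma-voom and 1 at an adjusted p under 0.05 (0 to 0 without 1 sample). Members lower there were 0 with library totals only, only the groups compared and the block in edgeR, 3 with limma-voom and with its block, 5 with DESeq2 and 4 at an adjusted p under 0.05 (0 to 1 without 1 sample). The causes were not tested.

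The rule gave 142 members at a floor of 5 CPM, 31 at 20 CPM and 105 at a macrophage ceiling of 2 CPM; other settings gave 45 to 80, and leaving out 1 sample 65 to 78, the highest being without the frontal cortex sample of pig 12599.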
